A study of Sus scrofa domesticus with 11 samples.

Results

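Bile acid synthesis enzymes turn cholesterol into the primary bile acids of the liver. The genes described here are the rows of the deposited liver table that carry the symbol of 1 of 10 named enzymes: CYP7A1, CYP8B1, CYP27A1, CYP7B1, CYP39A1, HSD3B7, AKR1D1, AMACR, SLC27A5 and BAAT. Of these, 9 had a row among the 22029 genes of the table, each on 1 gene identifier. AMACR, the racemase that readies the sterol side chain for peroxisomal shortening, had no row under its symbol and was skipped. The low-count filter kept 8 of the 9 among 13671 genes, and BAAT did not pass it.

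The livers came from Yorkshire piglets born preterm, which all received parenteral nutrition (feeding by vein) and were sampled at day of life 15. SEFA-6179, a compound known by its code name, was given at 48 mg/kg to the animals of 5 libraries. MCT, which stands for medium-chain triglyceride, was the vehicle control in an equal volume of 3 ml/kg for the animals of 6 libraries. The comparison asks how hepatic transcription differs between animals given the compound and animals given the vehicle. The sources used here name no sex, litter or pooling, and the p-values measure the spread between these libraries. Bulk tissue was sequenced, so fewer cells of a type and less RNA per cell cannot be told apart.

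Bile acids are made by 2 routes. In the classical route CYP7A1, an enzyme of the endoplasmic reticulum found almost only in hepatocytes, adds the first hydroxyl group to the sterol ring, and this step limits the rate. In the alternative route mitochondrial CYP27A1 first oxidises the side chain, and CYP7B1 then hydroxylates the ring. CYP8B1 adds the hydroxyl group that separates cholic acid from chenodeoxycholic acid, and pig bile is known for hyocholic and hyodeoxycholic acids beside chenodeoxycholic acid. Bile acids returning to the liver repress CYP7A1 and CYP8B1 through the nuclear receptor FXR and through intestinal FGF19.

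Total counts were 16821201 to 19215097 per SEFA-6179 library and 15974977 to 23416071 per MCT library. All 17 hepatocyte markers, ALB among them, had reads in these livers, and their summed level was 162920 to 248299 CPM with SEFA-6179 and 118020 to 229544 CPM with MCT. CPM are reads relative to the library total after TMM scaling. SEFA-6179 replicate 4 had the lowest summed macrophage markers, 921 CPM against 1526 to 3656 CPM in the other 10 libraries. MCT replicate 5 lay at 83.1 on the first principal component, which held 19.6% of the variance, against -30.8 to 14.7 in the other 10.

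CYP7A1 was the 1 enzyme gene of the group that passed the edgeR threshold with all libraries, and it was higher with SEFA-6179. In the 5 SEFA-6179 livers CYP7A1 was at 21.4, 7.68, 4.91, 39.5 and 25.9 CPM in replicates 1 to 5, against 1.52 to 4.16 CPM with a median of 3.01 CPM in the 6 MCT livers. Every SEFA-6179 liver lay above every MCT liver, but replicate 3, at 95 reads, only just did, and the highest MCT liver had 84 reads. The SEFA-6179 livers also differed more among themselves, with an 8.05-fold range and a coefficient of variation of 71.0%, against 2.73-fold and 35.5% in the MCT livers. The log2 fold change was 2.75 ± 0.49 (SE), or 6.71-fold, with a 95% interval of 1.69 to 3.80 on the log2 scale, and the edgeR adjusted p was 0.0478. Of 13671 genes tested, edgeR called 0.219% in either direction and 0.117% as higher with SEFA-6179. The groups did not overlap in 1.49% of these genes in either direction, and SEFA-6179 was the higher group in 0.673%. Its log2 fold change ranked 20 by size among all genes tested. The gene lies on chromosome 4 from 74342856 to 74372638, on the coordinates of the deposited table.

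The CYP7A1 difference kept its direction and most of its size whichever library was left out, with log2 fold changes of 2.34 to 3.00, but the edgeR call did not hold. It passed without SEFA-6179 replicate 2 (adjusted p = 0.0480) or replicate 3 (adjusted p = 0.00995). When SEFA-6179 replicate 1, 4 or 5 was left out, or any of the 6 MCT replicates, the adjusted p was 0.0596 to 0.149. Without both SEFA-6179 replicate 4 and MCT replicate 5 the log2 fold change was 2.41 (edgeR adjusted p = 0.124). By the DESeq2 Wald test CYP7A1 passed with all libraries (adjusted p = 5e-07 in the authors' deposited table) and in all 11 tests without 1 library, where the highest adjusted p was 5.86e-05. DESeq2 called 1.78% of the genes it tested.

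**Figure D1:**
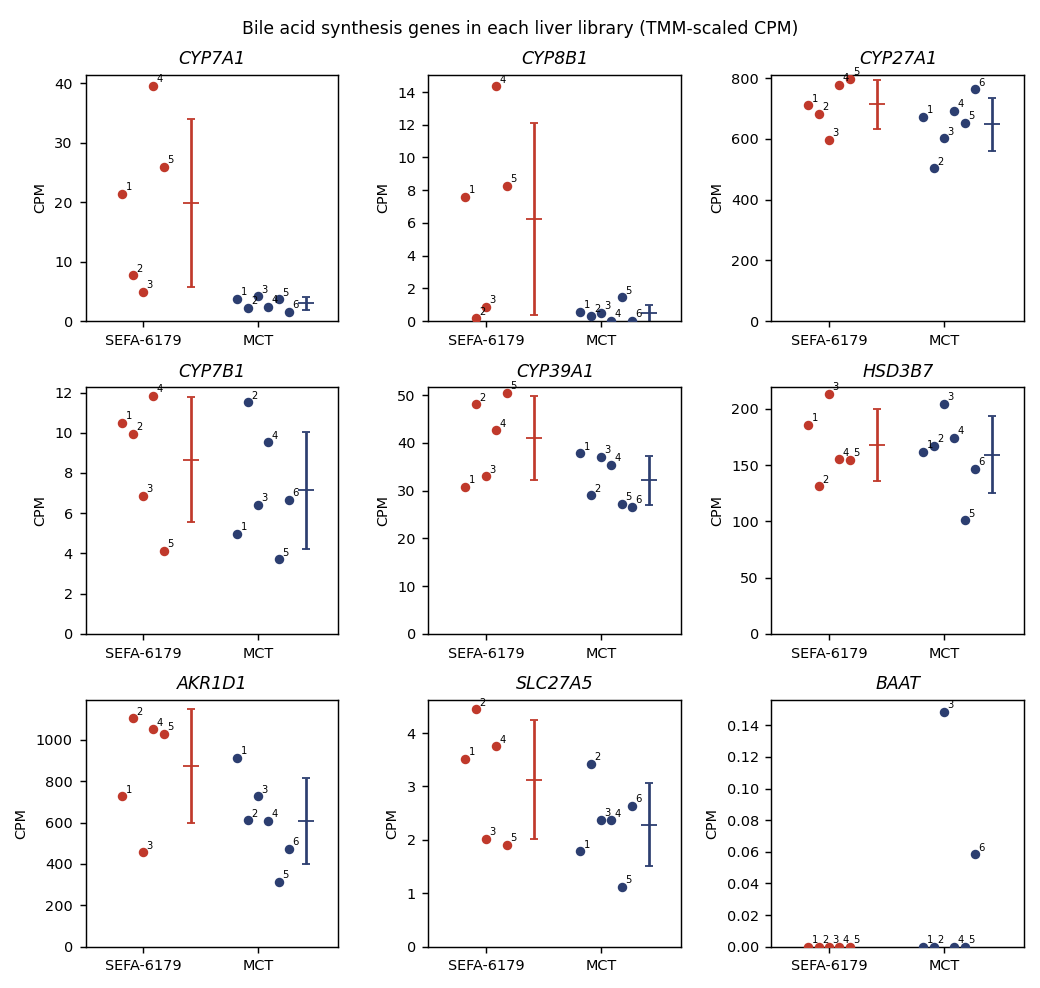
CPM of the 9 genes in each library, with SEFA-6179 (5 libraries, red) left of MCT (6 libraries, blue); numbers are replicates and bars give mean ± SD, cut at 0 and not drawn for BAAT. CYP7A1 is at 4.91 CPM or more in every SEFA-6179 liver and at 4.16 CPM or less in every MCT liver, while CYP8B1 splits the SEFA-6179 livers into 3 at 7.61 CPM or more and 2 below 1 CPM.

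CYP8B1 was high in 3 of the 5 SEFA-6179 livers and low in all MCT livers. It was at 7.61, 0.173, 0.879, 14.3 and 8.25 CPM in SEFA-6179 replicates 1 to 5, against 0 to 1.46 CPM with a median of 0.399 CPM with MCT. Replicates 1, 4 and 5 lay above all MCT livers, and they are also the 3 highest for CYP7A1, while replicates 2 and 3 lay within the MCT range. Behind these levels are 134, 3, 17, 241 and 134 reads in SEFA-6179 replicates 1 to 5, against 0 to 26 reads with MCT. MCT replicates 4 and 6 had 0 reads, where a count of 0 allows up to 3 reads, or at most 0.176 CPM in an MCT library. The group means, 6.25 ± 5.86 CPM (SD, n = 5) and 0.467 ± 0.540 CPM (SD, n = 6), gave a log2 fold change of 3.74 ± 1.07 (SE), larger than that of CYP7A1. CYP8B1 did not pass by edgeR (adjusted p = 0.218) or in the authors' deposited table (adjusted p = 0.0999). The interval of the fold change ran from 2.64 to 67.6. DESeq2 called it without SEFA-6179 replicate 2 (adjusted p = 0.0491) or MCT replicate 5 (adjusted p = 0.0302).

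CYP8B1 lies on chromosome 13 from 26330171 to 26337379, wholly inside ZNF662 on the opposite strand. ZNF662 had 3 to 42 reads per library with SEFA-6179 and 6 to 39 with MCT, and its part in the CYP8B1 counts was not tested.

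**Figure D2:**
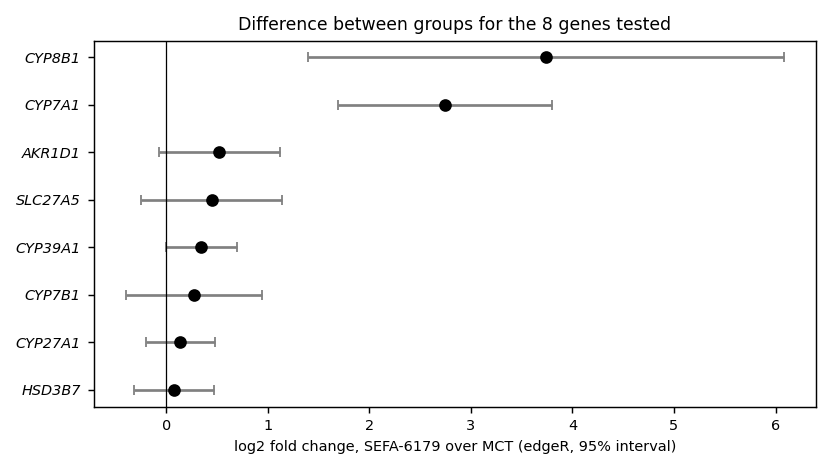
Log2 fold change of SEFA-6179 over MCT for the 8 genes tested, from edgeR, with 95% intervals. The intervals of CYP7A1 (1.69 to 3.80) and CYP8B1 (1.40 to 6.08) lie above 0 before adjustment for the number of genes, and those of the other 6 include 0.

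Within each library CYP7A1 was set against CYP27A1 as the log2 ratio of their reads, which does not depend on how libraries are scaled. CYP27A1 itself differed little between groups (log2 fold change 0.14), so the ratio largely restates the CYP7A1 difference and is not separate evidence. This ratio was -5.05, -6.47, -6.92, -4.30 and -4.94 in SEFA-6179 replicates 1 to 5, against -8.94 to -7.17 with MCT. All 5 SEFA-6179 livers lay above all 6 MCT livers. The mean was -5.54 ± 1.11 (SD, n = 5) with SEFA-6179 and -7.84 ± 0.64 (SD, n = 6) with MCT, a difference of 2.30 (exact permutation p = 0.00216, the smallest that 462 splits can give; adjusted p = 0.00649 over 3 ratios). The difference was 1.99 to 2.65 in the 11 tests without 1 library. It was 2.06 without SEFA-6179 replicate 4 and MCT replicate 5 together (exact permutation, adjusted p = 0.0238). Groups that lie fully apart stay apart when libraries are left out, so each of these tests had to give its smallest p. That they passed therefore says nothing about how firm the difference is.

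Against CYP7B1 the same shift was 2.16 on the log2 scale, with mean ratios of 0.91 ± 1.35 with SEFA-6179 and -1.25 ± 1.01 with MCT (exact permutation p = 0.0238, adjusted p = 0.0357). Here the groups overlapped, since SEFA-6179 replicates 2 and 3 lay among the MCT livers. Leaving out SEFA-6179 replicates 2 or 3, MCT replicates 1 or 5 kept the call. Leaving out SEFA-6179 replicates 1, 4 or 5, MCT replicates 2, 3, 4 or 6 ended it, with differences of 1.73 to 2.28 and an exact permutation adjusted p of at most 0.0786.

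The ratio of CYP8B1 to CYP7A1 did not pass, at -2.46 ± 1.61 with SEFA-6179 and -3.71 ± 2.04 with MCT (difference 1.25, exact permutation p = 0.268, adjusted p = 0.268). The size of this difference depended on the pseudocount, at 0.93 with a pseudocount of 1 and 0.24 with 5, and on single libraries. Leaving out SEFA-6179 replicate 2 gave 1.95, and leaving out MCT replicate 4 gave 0.66. SEFA-6179 replicate 2 had a ratio of -5.25, with 133 CYP7A1 reads and 3 CYP8B1 reads, while the other 4 SEFA-6179 livers lay between -2.45 and -1.46.

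**Figure D3:**
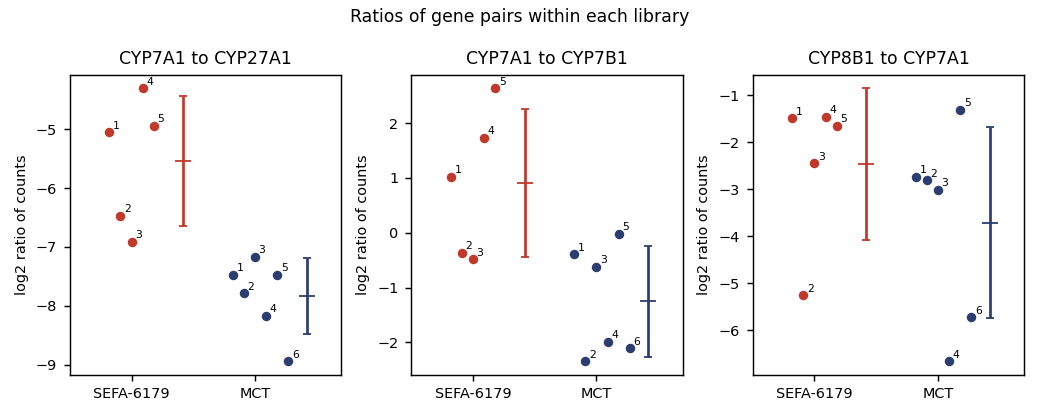
Log2 ratio of raw counts (pseudocount 0.5) for 3 gene pairs in each library, with SEFA-6179 left of MCT; numbers are replicates and bars give mean ± SD. For CYP7A1 to CYP27A1 the SEFA-6179 livers run from -6.92 to -4.30 and all lie above the MCT livers, whose highest value is -7.17.

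The alternative route showed no change past the threshold. CYP27A1, the mitochondrial sterol 27-hydroxylase, was at 710, 683, 596, 779 and 797 CPM in SEFA-6179 replicates 1 to 5, against 502 to 763 CPM with a median of 663 CPM with MCT. The groups overlapped, and the spread was small in both, with coefficients of variation of 11.3% with SEFA-6179 and 13.7% with MCT. Its log2 fold change was 0.14 ± 0.16 (SE; edgeR adjusted p = 0.802), with a 95% interval of -0.20 to 0.48, so a change of more than 1.39-fold upward lies outside that interval. CYP27A1 lies on chromosome 15 from 120809959 to 120852193.

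CYP7B1, the oxysterol 7-alpha-hydroxylase that follows it, was at 10.5, 9.94, 6.87, 11.8 and 4.13 CPM in SEFA-6179 replicates 1 to 5, against 3.71 to 11.5 CPM with a median of 6.55 CPM with MCT. Both groups covered nearly the same range. The log2 fold change was 0.28 ± 0.31 (SE; edgeR adjusted p = 0.801), with a 95% interval of -0.39 to 0.94.

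CYP39A1 hydroxylates the ring of 24-hydroxycholesterol, the oxysterol that leaves the brain. It was at 30.8, 48.1, 33.0, 42.6 and 50.4 CPM in SEFA-6179 replicates 1 to 5, against 26.6 to 37.8 CPM with a median of 32.2 CPM with MCT. Replicates 2, 4 and 5 lay above all MCT livers, and replicates 1 and 3 among them. Its log2 fold change was 0.35 ± 0.16 (SE; edgeR adjusted p = 0.467), with a 95% interval of -0.0021 to 0.70. CYP39A1 shares 174 bases with SLC25A27 on the opposite strand, which had 22569 reads in all, so some reads of the pair cannot be told apart without a stated strand setting.

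Both routes share the enzymes that reshape the ring. HSD3B7, the dehydrogenase that oxidises the ring after 7-alpha-hydroxylation, was at 186, 131, 213, 155 and 155 CPM in SEFA-6179 replicates 1 to 5, against 101 to 204 CPM with a median of 165 CPM with MCT. The SEFA-6179 median, 155 CPM, was below that of MCT while the mean was above it, and the log2 fold change was 0.08 ± 0.18 (SE; edgeR adjusted p = 0.913). HSD3B7 turned below 0, to -0.024 and -0.023, without MCT replicate 5 or SEFA-6179 replicate 3.

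AKR1D1, the 5-beta-reductase that bends the sterol ring system, was at 726, 1103, 456, 1050 and 1030 CPM in SEFA-6179 replicates 1 to 5, against 315 to 914 CPM with a median of 609 CPM with MCT. Replicates 2, 4 and 5 lay above all MCT livers, as for CYP39A1. AKR1D1 averaged 873 ± 276 CPM in the 5 SEFA-6179 livers and 608 ± 206 CPM in the 6 MCT livers (SD), a log2 fold change of 0.52 ± 0.28 (SE) that did not pass (edgeR adjusted p = 0.521; 95% interval -0.074 to 1.12).

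The conjugation enzymes had few reads in this table. SLC27A5, which activates bile acids to their coenzyme A esters, was at 3.52, 4.45, 2.02, 3.75 and 1.91 CPM in SEFA-6179 replicates 1 to 5, against 1.12 to 3.42 CPM with a median of 2.37 CPM with MCT. SEFA-6179 replicates 1, 2 and 4 lay above all MCT livers. These levels rest on 31 to 77 reads per library with SEFA-6179 and 20 to 79 with MCT. The log2 fold change was 0.45 ± 0.32 (SE; edgeR adjusted p = 0.664), with a 95% interval of -0.25 to 1.14. Its row overlaps that of ZBTB45 on the same strand over 6323 bases, and whether shared reads were dropped was not tested.

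BAAT, which joins the activated bile acids to glycine or taurine, had 0 reads in all 5 SEFA-6179 libraries. In the MCT group it had 3 reads in replicate 3, 1 read in replicate 6 and 0 in the others. A count of 0 allows up to 3 reads per library, between 0.155 and 0.185 CPM with SEFA-6179, so no difference in BAAT could be measured from these counts. Why BAAT had so few reads was not tested.

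Levels can be compared between genes only per length, which the deposited FPKM give. CYP27A1 and AKR1D1 shared the first places, at 257 ± 29.2 and 283 ± 89.0 FPKM (SD, n = 5) with SEFA-6179 and 234 ± 32.2 and 197 ± 67.2 FPKM (SD, n = 6) with MCT. Their ranges overlapped in both groups. Next came HSD3B7, in place 3 in all 11 libraries, at 77.3 ± 14.8 FPKM with SEFA-6179 and 73.3 ± 15.5 FPKM with MCT.

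CYP7A1, the enzyme of the limiting step, was far less abundant than CYP27A1. It was at 1.39 to 11.2 FPKM with SEFA-6179 and 0.431 to 1.17 FPKM with MCT. In the MCT livers it ranked 6 of the 9 genes in 5 libraries and 7 in MCT replicate 6, below CYP39A1 (4.78 to 6.88 FPKM) and CYP7B1 (1.59 to 4.86 FPKM) in every library. In SEFA-6179 replicates 1 and 4 it ranked 4, in replicate 5 it ranked 5, and in replicates 2 and 3 it ranked 6. With SEFA-6179 its range overlapped those of CYP39A1 (5.57 to 9.10 FPKM) and CYP7B1 (1.75 to 5.01 FPKM). CYP8B1 was at 0.0236 to 1.96 FPKM with SEFA-6179 and 0 to 0.203 FPKM with MCT. Its FPKM rest on a length of 7209 bases in the deposited table, whereas RefSeq's Sscrofa11.1 gene list gives the gene a span of 1506 bases, and a shorter length would give higher FPKM.

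**Figure D4:**
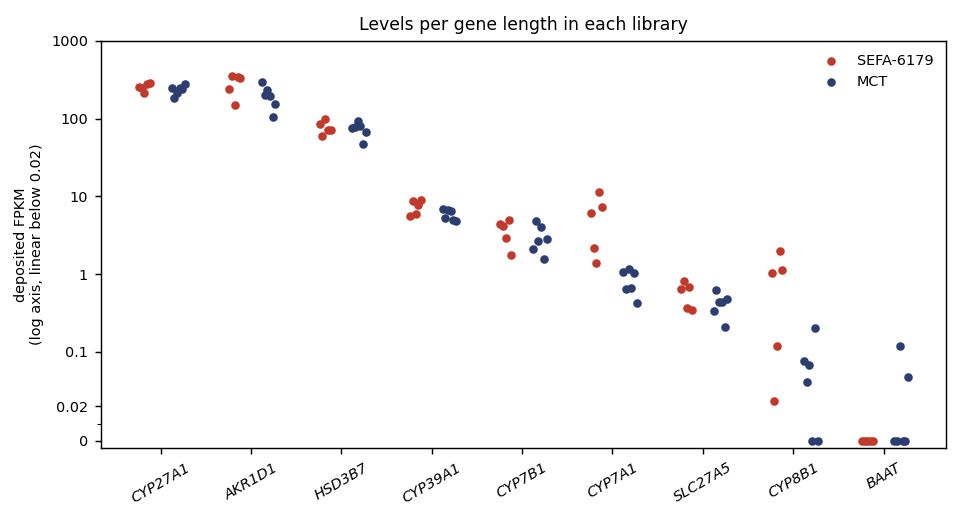
Deposited FPKM of the 9 genes in each library on a log axis that is linear below 0.02, ordered by the MCT mean, with SEFA-6179 (red) left of MCT (blue). CYP7A1 runs from 1.39 to 11.2 FPKM with SEFA-6179, reaching the range of CYP39A1, and from 0.431 to 1.17 FPKM with MCT.

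Over the 8 genes tested, all 8 log2 fold changes lay above 0, where 49.8% of all genes tested did, and their median was 0.40, against -0.0015 over all genes. Without CYP7A1 and CYP8B1 the median was 0.31. By edgeR 1 of the 8 passed, where 0.219% of all genes tested did. An unadjusted p below 0.05 was found for 2, where 10.8% of all genes tested had one. The groups did not overlap in 1 of the 8, against 1.49% of all genes tested. HSD3B7 turned below 0 in 3 of the alternatives. Genes measured in the same livers are not independent, and these counts are a description.

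The list of other genes of the pathway held 14 symbols, of which 13 had a row and 12 were tested. None rose or fell past the threshold by edgeR and 1 did in the authors' deposited table. Of the 12, 9 lay above 0, 2 had an unadjusted p below 0.05, and the median log2 fold change was 0.11. Over all 13671 genes tested, 49.8% lay above 0, 10.8% had such a p, and edgeR called 0.219%. The lowest p of the 12 belonged to FDX1, the ferredoxin that passes electrons to mitochondrial P450 enzymes such as CYP27A1. FDX1 ran from 66.7 to 165 CPM in the 5 SEFA-6179 livers (mean 120 ± 42.5 SD) and from 45.9 to 82.7 CPM in the 6 MCT livers (mean 57.0 ± 14.5 SD), so the groups overlapped. Its log2 fold change was 1.08 ± 0.24 (SE) with an edgeR adjusted p of 0.0905. The authors' deposited table, where 1.16% of all 22029 genes passed, gave FDX1 an adjusted p of 0.00387. DESeq2 run here called 1.78% of the 14303 genes it tested.

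HSD17B4, the multifunctional enzyme of peroxisomal side-chain shortening, averaged 553 ± 120 CPM in SEFA-6179 livers and 391 ± 54.2 CPM in MCT livers (log2 fold change 0.50 ± 0.18 SE, edgeR adjusted p = 0.307). POR, the reductase that feeds electrons to the P450 enzymes of the endoplasmic reticulum, averaged 253 ± 42.9 CPM in SEFA-6179 livers and 208 ± 27.4 CPM in MCT livers (edgeR adjusted p = 0.539). SCP2, the thiolase and sterol carrier that ends side-chain shortening, averaged 819 ± 215 CPM in SEFA-6179 livers and 677 ± 135 CPM in MCT livers (edgeR adjusted p = 0.682). CH25H, a cholesterol 25-hydroxylase outside the P450 family, had 8 reads in all and was not tested.

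Summed marker levels of other liver cells were set beside these values. Cholangiocytes line the bile ducts, and 9 of their 11 tested markers lay below 0 (median log2 fold change -0.49), with sums of 188 to 270 CPM in SEFA-6179 livers and 207 to 508 CPM in MCT livers. KRT19 and MUC1 had no row under their symbols. All 9 endothelial markers lay above 0, with sums of 596 to 1019 CPM in SEFA-6179 livers and 494 to 901 CPM in MCT livers. Macrophage markers lay above 0 in 9 of 11 cases, with sums of 921 to 3656 CPM in SEFA-6179 livers and 1526 to 2871 CPM in MCT livers. Stellate cell and fibroblast markers lay below 0 in 8 of 10 cases, with sums of 523 to 837 CPM in SEFA-6179 livers and 667 to 1053 CPM in MCT livers. T and NK cell markers lay above 0 in 8 of 9 cases, with sums of 15.7 to 37.5 CPM in SEFA-6179 livers and 14.1 to 35.4 CPM in MCT livers. Erythroid markers lay below 0 in 4 of 5 cases. Their sums leaned the other way, with overlap, at 224 to 495 CPM in SEFA-6179 livers and 106 to 420 CPM in MCT livers. Hepatocyte markers, whose cells make CYP7A1, lay above 0 in 11 of 17 cases, with a median of 0.096. No marker of these lists with a row was at 0 in all libraries. By edgeR none of the markers passed. Of all genes tested, 10.8% had an unadjusted p below 0.05. So did 5 of 11 cholangiocyte, 5 of 10 stellate cell and fibroblast, 3 of 9 endothelial and 2 of 11 macrophage markers. The same held for 1 of 9 T and NK cell, 1 of 5 erythroid and 0 of 17 hepatocyte markers. The authors' deposited table, where 1.16% of all 22029 genes passed, called 4 cholangiocyte markers and none of the other cell lists. DESeq2 run here called 1.78% of the 14303 genes it tested. The part of cell composition in the CYP7A1 difference was not tested.

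The genes did not vary as 1 block between animals. After the mean of each group was removed from log2 CPM, 16 of 28 gene pairs had a Pearson correlation above 0 over the 11 libraries, and 2 passed a permutation test within groups after adjustment over the 28 pairs. CYP7B1 varied with SLC27A5 (r = 0.89, exact permutation p = 0.00066, adjusted p = 0.0185; rho = 0.84, p = 0.00443, adjusted p = 0.113). Without the 2 libraries farthest from the CYP7B1 median r was 0.79. Leaving out SEFA-6179 replicates 4 or 5, MCT replicates 1, 2 or 5 ended the call, with r of at least 0.86 in each case. In both genes MCT replicate 5 and SEFA-6179 replicate 5 were the lowest of their groups.

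CYP39A1 varied with AKR1D1 (r = 0.81, exact permutation p = 0.00346, adjusted p = 0.0484; rho = 0.76, p = 0.0102, adjusted p = 0.113), and r was 0.78 without the 2 libraries farthest from the CYP39A1 median. Its call was kept without SEFA-6179 replicate 1 or 3 and lost in the other 9 tests, with r of at least 0.78 throughout.

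CYP7A1 and CYP8B1, the classical pair, had an r of 0.86 (exact permutation p = 0.00581, adjusted p = 0.0542; rho = 0.80, p = 0.0121, adjusted p = 0.113), which did not pass, and 0.79 without the 2 libraries farthest from the CYP7A1 median. It passed without SEFA-6179 replicate 2 (r = 0.86, exact permutation adjusted p = 0.0405) or replicate 3 (r = 0.91, exact permutation adjusted p = 0.027). Within the 6 MCT livers alone r was 0.81 (exact permutation p = 0.0694, adjusted p = 0.486). CYP7A1 and CYP27A1 had an r of 0.40 (exact permutation p = 0.214, adjusted p = 0.920), which was -0.14 without the 2 libraries farthest from the CYP7A1 median. Values of 1 library share its depth and scaling, which these tests do not remove.

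**Figure D5:**
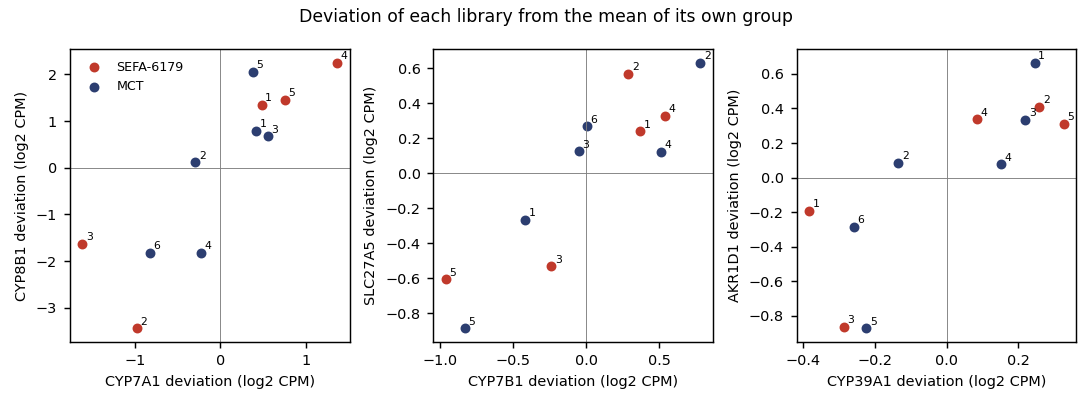
Deviation of each library from the mean of its own group, in log2 CPM, for 3 gene pairs; SEFA-6179 is red, MCT is blue and numbers are replicates. The libraries run from lower left to upper right in each panel, with r of 0.86 for CYP7A1 and CYP8B1, 0.89 for CYP7B1 and SLC27A5 and 0.81 for CYP39A1 and AKR1D1.

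Among 9943 other genes with a symbol and a mean count of at least 50, CYP8B1 ranked 9 for likeness to CYP7A1 after group means were removed, and the next enzyme gene, AKR1D1, ranked 987 (r = 0.43). CYP8B1 met that mean count only through the SEFA-6179 libraries, with 529 reads there and 54 in the MCT libraries. MCT replicates 4 and 6 had 0 CYP8B1 reads, and their shared deviation of -1.82 came from the prior count. Among the 5 most like were ALDH3A2 (r = 0.93), PHLPP2 (r = 0.91), DDX50 (r = 0.91) and CUL5 (r = 0.89) over the 11 libraries. ALDH3A2 encodes a fatty aldehyde dehydrogenase, and its r was 0.78 without the 2 libraries farthest from the CYP7A1 median. Of the other 3, DDX50 had an r of 0.82, CUL5 of 0.68 and PHLPP2 of 0.63 without those libraries. None of these 4 passed between groups by edgeR, with adjusted p of 0.283 to 0.842. The highest of so many correlations over 11 libraries are high by selection, and they are given as a description.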

How the data were processed

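Per the file headers, the authors deposited 3 values for every gene and library: the raw read count, an FPKM value and a normalized signal. The normalized signal, as deposited by the authors, is that count over a size factor. The FPKM values, as deposited by the authors, are reads per kilobase of gene length, scaled per library. That scaling did not follow the library total alone. CYP27A1 had 12509 of 16821201 reads in SEFA-6179 replicate 1 and 12154 of 16598154 in MCT replicate 3, at 257 and 216 FPKM. How the authors set the FPKM scaling was not tested. Their deposited comparison holds group means, the log2 fold change, its p-value and the adjusted one. Tools named by the submitters' processing notes were HISAT2 (2.0.5), StringTie (1.3.3b), DESeq2 (1.20.0) and featureCounts (1.5.0-p3). For the genome build, annotation release and strand setting the sources used here give nothing.

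All 11 libraries entered 1 edgeR 4.0.16 test of the deposited counts in R 4.3.3 (filterByExpr with a minimum count of 10, TMM scaling, robust quasi-likelihood test, two-sided, Benjamini-Hochberg adjustment over 13671 genes, threshold 0.05). Standard errors come from the fold change and its F statistic. Levels are TMM-scaled CPM as mean ± SD. Log2 CPM used a prior count of 2. Ratios and correlations used two-sided exact permutation tests in Python 3.11.15, over 462 arrangements of the libraries or 86400 orders within groups. The edgeR step was tested on simulated counts. No 2 libraries agreed within sampling noise (lowest chi-square per degree of freedom 41.9).

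Alternatives were no low-count filter, scaling by DESeq2 size factors, only genes averaging at least 50 reads, the Wald test of DESeq2 1.42.0, limma 3.58.1 with library weights, no robust estimation, a replicate block, other pseudocounts and prior counts, and each library left out. Both edgeR and the correlations were also run without SEFA-6179 replicate 4 and MCT replicate 5 together, and the correlations in MCT livers alone. Added after the data were seen were a covariate for EIF1AY, replicates 1 to 5 without the block, and DESeq2 without single libraries. So were ratios without both libraries that stood apart, and correlations without single libraries. The members, lists and tests were chosen with earlier results of these data known. Named genes are all members, the 4 other pathway genes with the smallest p, and the 5 genes most like CYP7A1, of which 1 is not reported here. CH25H, ACOX2 and the genes that overlap or neighbour a member were named after their values were seen. Intervals of fold changes come from the edgeR test and include the spread between libraries. Limits on a count of 0 cover counting error only.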

Additional observations from a re-analysis of the deposited data

Results flagged for a closer look

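Of 48 sets of values examined, each a gene or ratio in the 5 SEFA-6179 or the 6 MCT livers, 3 held a value well apart from its neighbours, where about 1 in 20 sets, or 2.4, would by chance. CYP8B1 was at 1.46 CPM in MCT replicate 5, while the other MCT livers held 0 to 0.546 CPM. SEFA-6179 replicate 2 had a log2 ratio of CYP8B1 to CYP7A1 of -5.25, while the other SEFA-6179 livers held -2.45 to -1.46. ACOX2, the oxidase that starts peroxisomal shortening of the bile acid side chain, was at 128 CPM in MCT replicate 5, while the other MCT livers held 240 to 287 CPM.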

How the results depend on the processing

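The number of genes called was 30 by edgeR, 255 by DESeq2, 62 by limma with library weights, 8 with the replicate block, 1 without SEFA-6179 replicate 4 and MCT replicate 5 together, and 6 with a covariate for EIF1AY, a gene of the Y chromosome. Without single libraries it ranged from 0 to 53. It was 0 by edgeR without SEFA-6179 replicate 5, where 1184 genes had an unadjusted p below 0.05 and DESeq2 called 151. It was also 0 without MCT replicate 4, where 1258 genes had such a p and DESeq2 called 158. CYP7A1 kept its direction under all alternatives. Its log2 fold change missed the edgeR threshold with no filter (2.75, adjusted p = 0.0928), with the replicate block (2.30, adjusted p = 0.182), with replicates 1 to 5 and no block (2.62, adjusted p = 0.0596), without both libraries named above (2.41, adjusted p = 0.124), with the covariate (2.80, adjusted p = 0.0603), and with limma (2.55, adjusted p = 0.0763). Without single libraries it was 2.34 to 3.00. Same-numbered libraries had correlations of -0.15 to 0.20, and differently numbered ones -0.21 to 0.21. These values cannot settle whether replicate numbers pair the libraries, and the sources used here name no litter. HSD3B7 turned to -0.0017 with limma, and ranged from -0.024 to 0.16 without single libraries, at -0.023 without SEFA-6179 replicate 3 and at -0.024 without MCT replicate 5. The cause was not tested. CYP8B1 reached 4.06 and 4.54 in the 2 DESeq2 tests that called it, in a range of 3.18 to 4.54 without single libraries. The other 5 enzyme genes tested kept their direction and passed under none of the alternatives run for them, which do not include DESeq2 without single libraries. The ratio of CYP7A1 to CYP7B1 was 1.73 to 2.51 without single libraries. CYP7A1 to CYP27A1 passed under all alternatives run for the ratios, and CYP8B1 to CYP7A1 passed under none of them. Where libraries were left out, the CYP7A1 to CYP27A1 pass was fixed in advance, since its groups lie fully apart. The number of correlated pairs was 0 in MCT livers alone and 0 without both libraries named above (exact permutation, with 3 of the named pairs below an unadjusted p of 0.05 in the second case and 2 in the first), and 0 to 3 without single libraries. Low counts limit BAAT, SLC27A5 and CYP8B1 most, and the reason for their few reads was not tested.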

Other observations

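Near BAAT, on the same strand of chromosome 1, the deposited table lists a protein-coding gene without a name, ENSSSCG00000005398, from 243030484 to 243039581, which ends 26214 bases before the BAAT row starts. It had 116323 reads in all, where BAAT had 4. Its level averaged 568 ± 97.9 CPM in the 5 SEFA-6179 livers and 548 ± 196 CPM in the 6 MCT livers (SD; log2 fold change 0.05 ± 0.24 SE, edgeR adjusted p = 0.963). Another unnamed gene there, ENSSSCG00000038171, had 10271 reads (edgeR adjusted p = 0.917). The sources used here give neither a name.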
